A study of Mus musculus with 12 samples.

Results

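The genes that make up the nuclear-coded part of oxidative phosphorylation were followed across all 12 single-cell libraries of the study. Members were taken by symbol from the deposited gene lists: every gene beginning with Nduf, Uqcr, Atp5, Cox4, Cox5, Cox6, Cox7 or Cox8, together with Sdha, Sdhb, Sdhc, Sdhd and Cyc1, with pseudogene symbols left out. This gave 94 of the 31053 listed genes, with 38 members in complex I, 8 complex I assembly factors, 4 in complex II, 9 in complex III, 18 in complex IV and 17 in complex V. They carry 93 symbols, because Atp5o is listed under 2 identifiers, of which ENSMUSG00000116933 had no count in any library. Grouping followed the symbol, so Ndufa4, which is known to sit in complex IV, was counted with complex I.

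Oxidative phosphorylation passes electrons from NADH and succinate through complexes I to IV of the inner mitochondrial membrane to oxygen, and complex V (ATP synthase) uses the proton gradient that this builds to make ATP. Most subunits are coded in the nucleus and imported, whereas the catalytic core of complexes I, III, IV and the membrane part of complex V also need proteins coded by mitochondrial DNA (the mt- genes), so the complexes are built from 2 genomes. Microglia, the resident macrophages of the brain, use this pathway together with glycolysis, and both are known to shift with activation.

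GFP+ microglia-like cells (MLCs), the brain progeny of transplanted hematopoietic stem/progenitor cells, and GFP- endogenous microglia were sorted as CD45+ CD11b+ CX3CR1+ cells from 4 treated C57BL/6J mice, so that each sort has 4 libraries, 1 from each mouse. A female and a male were dosed i.v., and a female and a male i.c.v. All 4 recipients had been conditioned with busulfan, received male-donor Lin- marrow cells transduced with a lentiviral GFP vector, and were later given untransduced total marrow i.v., so the GFP- sort can hold untransduced marrow-derived cells. The labels give these mice an age of 22 to 28 weeks, which is shorter than the time after dosing that the methods describe. Comparator libraries, 1 each, came from treatment-naive C57BL/6J tissue at 8 to 12 weeks: microglia, neurons and astrocytes from brain, and white blood cells.

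A barcode was kept where it held 200 genes or more and had no more than 10% of its unique molecular identifiers (UMIs) on mt- genes, which left 4970758 to 16514669 UMIs per treated library and 987965 to 4804709 per treatment-naive library. The GFP+ library of the i.v. female stood apart in depth, with a median of 3499 UMIs per cell against 1058 to 1307.5 in the other GFP+ libraries and 842 to 1034 in the GFP- libraries. At least 3 microglia markers were found in 57.5% to 72.7% of GFP+ cells and 91.2% to 95.3% of GFP- cells, and at least 3 markers of CNS-associated macrophages in 33.5% to 47.9% and 3.81% to 12.6%. The treatment-naive library sorted as neurons did not hold its labelled cells: 95.5% of its cells carried at least 3 oligodendrocyte markers and 0.348% at least 3 neuron markers, and it is called the neuron sort here. Astrocyte markers were carried by 94.5% of the astrocyte sort and microglia markers by 90.0% of the treatment-naive microglia. Any 2 libraries shared at most 0.348% of the barcodes of the smaller library.

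The members together took 0.795% to 1.36% of all UMIs in the treated libraries, and their summed level was higher in MLCs than in endogenous microglia of every mouse. In UMIs scaled to a common total per library (counts per 1e6, CPM), the sum in GFP- libraries was 9095 in the i.v. female, 7947 in the i.v. male, 9704 in the i.c.v. female and 8970.0 in the i.c.v. male. In the GFP+ libraries of the same mice it was 13639.5, 11376, 10891 and 10135. The sorts did not overlap, with means of 8929 ± 729 and 11510 ± 1508 CPM (SD, n = 4 each), a ratio of 1.29. Without the GFP+ library of the i.v. female, the other 3 still lay above all GFP- libraries. The mt- genes showed no such split: the 13 summed to 30647, 24563, 28193 and 27090 CPM in the GFP- libraries and 22878, 25340, 27512.5 and 26611 CPM in the GFP+ libraries, and these ranges overlapped. Nuclear-coded over mt- UMIs therefore stood at 0.324 ± 0.020 in GFP- and 0.455 ± 0.098 in GFP+ libraries (SD, n = 4 each), again without overlap. The limit of 10% on mt- UMIs bears on the second sum: without it, the mt- genes reached 40580 ± 4357 CPM in GFP- and 31171 ± 4218 CPM in GFP+ libraries (SD, n = 4 each), which did not overlap, while the members kept a ratio of 1.26. Because UMIs were counted from the 3-prime end of transcripts, levels of different genes are set side by side without dividing by length. In summed libraries, fewer cells of a type and less RNA per cell cannot be told apart.

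**Figure D1:**
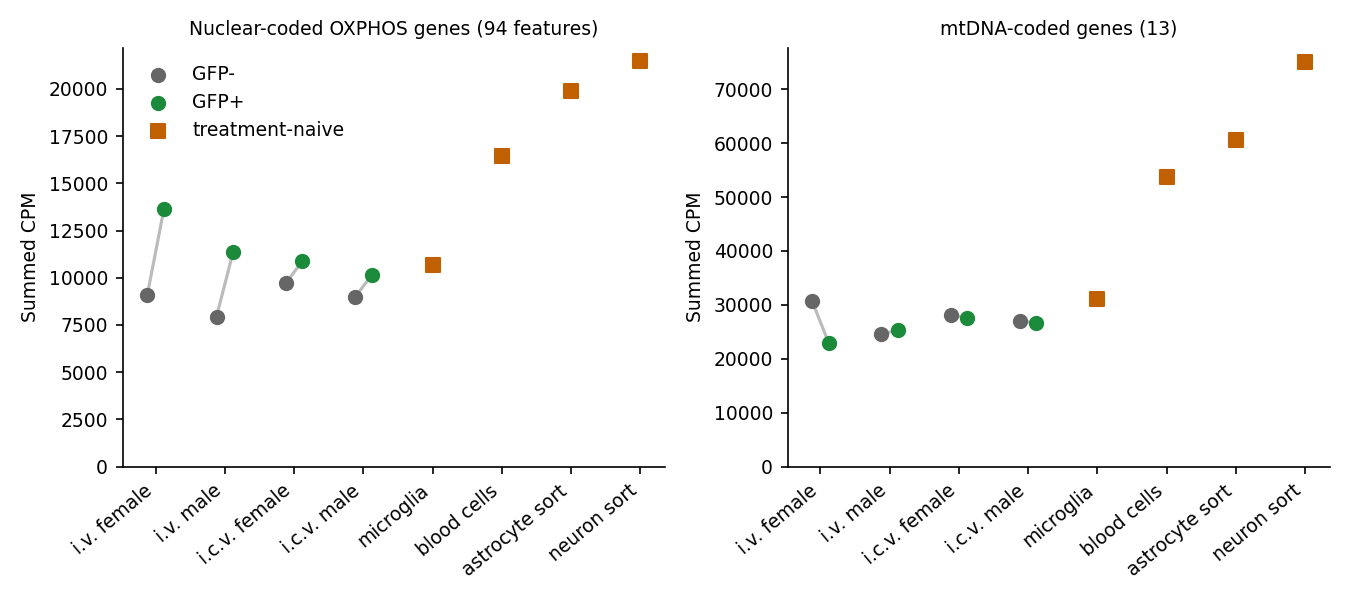
Summed level of the 94 nuclear-coded oxidative phosphorylation genes (left) and of the 13 mt- genes (right) in each library, in CPM. Circles joined by a line are the GFP- (gray) and GFP+ (green) libraries of 1 mouse, and squares are treatment-naive libraries: GFP+ lay above GFP- in 4 of 4 mice for the nuclear-coded genes and in 1 of 4 for the mt- genes, and both sums were highest in the neuron sort.

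Gene by gene, counts summed per library and scaled by TMM (trimmed mean of M values, which centres libraries on the typical gene) were tested between the sorts in edgeR (quasi-likelihood), and genes with a Benjamini-Hochberg adjusted p under 0.05 are called. Of the 94 members, 87 passed the filter on low counts. In GFP+ libraries, 68 of these were called higher, whereas 16.6% of all 11755 genes tested were, and 0 were called lower, against 15.9% of all genes. Only Ndufaf7 and Cox6a2 had a log2 difference below 0, with unadjusted p of 0.769 and 0.747, and DESeq2 also called 0 members lower. The median log2 difference was 0.61 over the members and 0.01 over all genes. The sorts were fully separate in CPM, with GFP+ higher, in 37 of the 87 members, as they were in 6.28% of all genes. With library totals in place of TMM, the median of all genes moved to -0.27 and that of the members to 0.33, so both medians moved down together, and 38 members were called higher and 0 lower (6.54% and 32.4% of all genes). Summed by complex, the sorts did not overlap for complexes I, III, IV and V, and for complex II they overlapped, at 222 to 246 CPM in GFP- and 244 to 305 CPM in GFP+ libraries. The replicate block, which pairs the sorts within a mouse, gave 64 (13.6% of all genes higher): Ndufb9, Ndufs6, Sdha, Sdhc, Uqcrc2 and Atp5f1 lost their calls, with adjusted p of 0.0515 to 0.0739, and Ndufaf2 and Atp5k gained one. These are differences between whole sorts, and they moved with the depth of the cells: over cells with 800 to 1600 UMIs the median was -0.08.

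**Figure D2:**
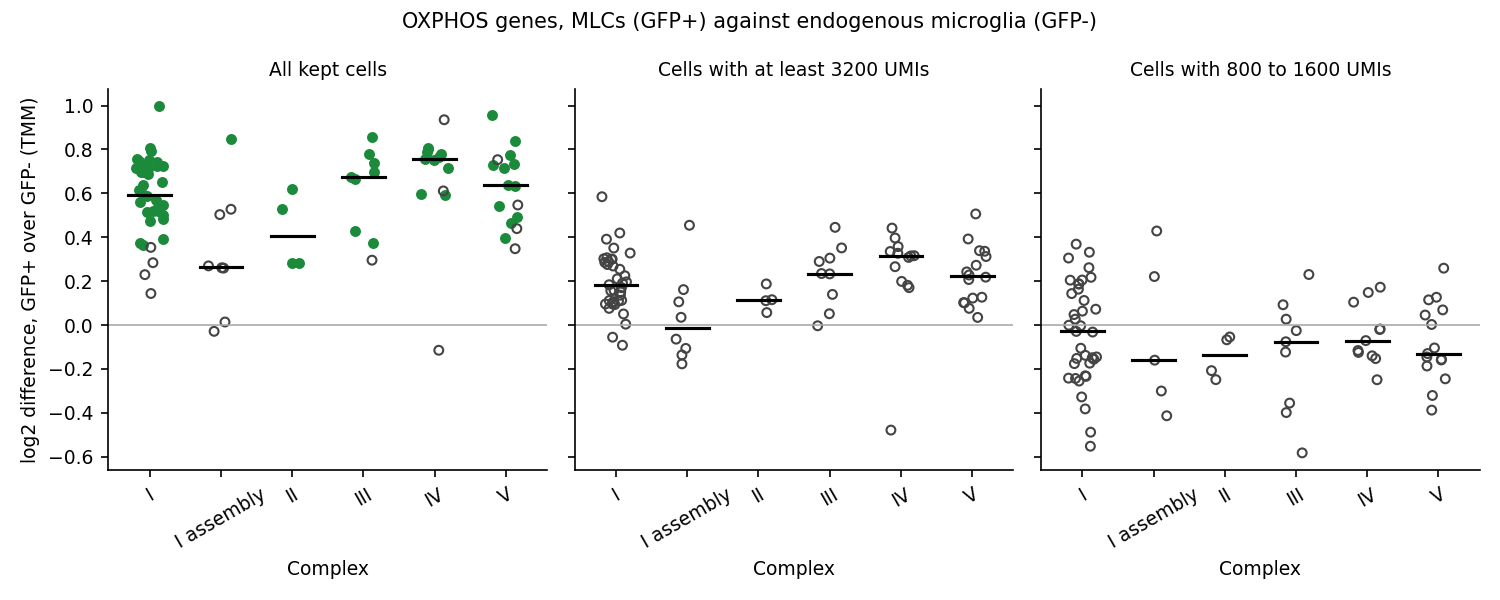
Log2 difference of GFP+ over GFP- (TMM) for each member tested, by complex, over all kept cells, over cells with at least 3200 UMIs and over cells with 800 to 1600 UMIs. Filled green points were called (adjusted p under 0.05, edgeR), open points were not, and bars are medians: 68 members were called over all cells and 0 in either depth class.

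Complex I, which takes electrons from NADH, had 33 of 37 tested members called higher (median log2 difference 0.59). Values for single genes are listed in the order i.v. female, i.v. male, i.c.v. female and i.c.v. male. Ndufa3 (ENSMUSG00000035674, chromosome 7, 3617373 to 3620327 on GRCm38), a small accessory subunit, had 71.6, 50.4, 62.8 and 54.4 CPM in the GFP- libraries and 132, 94.7, 86.0 and 77.1 CPM in the GFP+ libraries. The lowest GFP+ value exceeded the highest GFP- value, and the log2 difference, 0.997 (standard error 0.20, adjusted p = 0.00720), was the largest among called members. The accessory subunit Ndufa13 (GRIM-19) was the most abundant member of the complex in these cells, at 170.0, 139.6, 187 and 154 CPM in the GFP- and 264, 215, 215 and 193 CPM in the GFP+ libraries. Its sorts did not overlap either, with a log2 difference of 0.73 (standard error 0.16, adjusted p = 0.00931). Ndufc2, another accessory subunit and next in abundance, had 163, 149, 163 and 175 CPM and 236, 175, 182 and 201 CPM, with a GFP+ library of the i.v. male just under the highest GFP- library. Its log2 difference was 0.57 (standard error 0.13, adjusted p = 0.0124). The 4 members not called were Ndufs1, Ndufv1, Ndufa8 and Ndufa9. Ndufs1, the largest iron-sulfur subunit of the electron-transferring arm, had 29.98, 27.0, 25.7 and 27.8 CPM in the GFP- and 25.4, 20.2, 26.9 and 27.8 CPM in the GFP+ libraries, a log2 difference of 0.14 (standard error 0.10, adjusted p = 0.302). Its ranges overlapped, and 2 of 4 mice had the higher CPM in GFP+ cells. Ndufa4l2 did not pass the filter.

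The 8 complex I assembly factors, which help to build the complex and are not part of it, gave few calls, with 1 called higher and a median log2 difference of 0.27. The called factor was Ndufaf8 (chromosome 11, 120098928 to 120100705), at 35.0, 24.1, 37.0 and 33.9 CPM in the GFP- and 60.6, 45.5, 42.2 and 43.9 CPM in the GFP+ libraries. Its sorts did not overlap, and its log2 difference was 0.85 (standard error 0.19, adjusted p = 0.0107). The others ranged from -0.03 for Ndufaf7 to 0.53 for Ndufaf5, and Ndufaf2 was called under the replicate block only (adjusted p = 0.0330 against 0.0543 without it). The summed level of the 8 factors overlapped between the sorts, at 130 to 173 CPM in GFP- and 140 to 183 CPM in GFP+ libraries.

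Complex II, succinate dehydrogenase, is the only complex of the chain without a mtDNA-coded subunit and also works in the TCA cycle. All 4 of its genes were called higher, with the smallest median of the complexes (0.41). Sdhb, the iron-sulfur subunit, had 74.8, 63.1, 77.2 and 70.2 CPM in the GFP- and 112, 82.7, 82.9 and 82.4 CPM in the GFP+ libraries. The GFP+ library of the i.v. female was the highest and the sorts did not overlap, with a log2 difference of 0.62 (standard error 0.15, adjusted p = 0.0137). Sdha, the flavoprotein that holds the active site, had 77.9, 66.4, 68.1 and 73.7 CPM and 76.5, 66.1, 72.1 and 70.9 CPM. These ranges overlapped fully and CPM was higher in GFP+ cells of 1 of 4 mice, and the log2 difference was 0.28 (standard error 0.10, adjusted p = 0.0489). That call rests on the TMM scaling, since with library totals the log2 difference was -0.0019. Sdha and Sdhc lost their calls under the replicate block (adjusted p = 0.0610 and 0.0515).

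In complex III, which passes electrons from ubiquinol to cytochrome c, 8 of 9 members were called higher (median 0.68). Uqcrh, the hinge protein that contacts cytochrome c1, was the most abundant, at 243, 213, 285 and 262 CPM in the GFP- and 395, 359, 328 and 294 CPM in the GFP+ libraries. All GFP+ libraries were above all GFP- libraries, with a log2 difference of 0.74 (standard error 0.16, adjusted p = 0.00977). Uqcr11 (chromosome 10, 80402997 to 80406830), the smallest subunit here by coding length, had 92.5, 70.3, 95.1 and 87.7 CPM and 159, 122, 125 and 109 CPM. Its sorts were separate too, and its log2 difference of 0.86 (standard error 0.17, adjusted p = 0.00637) was the largest of the complex. Uqcrb, a small subunit near the ubiquinone site, had a log2 difference of 0.67 (standard error 0.15, adjusted p = 0.0108). Uqcrc1, a core protein, was the member not called, with 0.30 (standard error 0.13, adjusted p = 0.106).

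Complex IV, cytochrome c oxidase, holds the most tissue-specific isoforms of the chain. Of its 18 members 13 were tested and 10 called higher, with the largest median of the complexes (0.75). Cox4i1, the regulatory subunit found in most tissues, was the most abundant member of all, at 502, 485, 557 and 544 CPM in the GFP- and 702, 635, 643 and 611 CPM in the GFP+ libraries. Its sorts did not overlap, and its log2 difference was 0.59 (standard error 0.12, adjusted p = 0.00841). Cox8a, a small membrane subunit, had 368, 325, 437 and 385 CPM and 608, 544, 493 and 458 CPM, again without overlap, and a log2 difference of 0.75 (standard error 0.16, adjusted p = 0.00948). Cox7a2l had 251, 255, 321 and 304 CPM and 414, 396, 404 and 372 CPM. The GFP+ libraries lay close together and apart from the GFP- libraries, at 396 ± 18.0 and 283 ± 35.0 CPM (SD, n = 4 each), with a log2 difference of 0.76 (standard error 0.14, adjusted p = 0.00495). Cox7b, Cox6b2 and Cox6a2 were the tested members not called, with log2 differences of 0.61, 0.94 and -0.11.

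Complex V had 12 of 16 tested members called higher (median 0.64). Atp5e (chromosome 2, 174461072 to 174464105), the small epsilon subunit of the central stalk, had 217, 169.8, 238 and 190.0 CPM in the GFP- and 407, 342, 305 and 245 CPM in the GFP+ libraries. The sorts did not overlap and the log2 difference was 0.96 (standard error 0.20, adjusted p = 0.00799). Atp5l, subunit g of the membrane part, had 205, 162, 228 and 202 CPM and 355, 315, 249.2 and 248.8 CPM and a log2 difference of 0.84 (standard error 0.19, adjusted p = 0.0108), also without overlap. The catalytic subunits differed less, with log2 differences of 0.40 (standard error 0.10, adjusted p = 0.0171) for Atp5a1 and 0.49 (standard error 0.12, adjusted p = 0.0139) for Atp5b. The c subunit, whose ring turns with the proton flow, is coded by 3 genes that make the same mature protein, and these were not called alike. Atp5g2, the most abundant of them, had 295, 269, 329 and 289 CPM and 414, 379.6, 378 and 338 CPM and a log2 difference of 0.64 (standard error 0.13, adjusted p = 0.00813), whereas Atp5g1, at 0.55 (standard error 0.19, adjusted p = 0.0503), and Atp5g3, at 0.44 (standard error 0.16, adjusted p = 0.0563), were not called. Atp5k and Atp5s were the other members not called, and Atp5k was called under the replicate block (adjusted p = 0.0305).

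Some of these genes have close copies elsewhere in the genome. Of the 94 members, 64 shared no stretch of 60 bases in the last 500 bases of their main GENCODE transcript with a transcript of another gene, and 8 shared more than 50% of such stretches. Among the genes described above, Atp5g2 shared 99.1% (with Gm10175 and Gm10231) and Atp5l 74.4% (with its pseudogenes and Gm10221), so their counts are uncertain to the extent that reads were split between copies.

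The difference between the sorts was not the same in cells of different depth. Cells were put into 4 classes by UMIs per cell, and the members' share of UMIs was taken in each. Under 800 UMIs, the share was 0.330% to 0.553% in GFP+ and 0.623% to 0.872% in GFP- libraries, and it was lower in GFP+ cells of all 4 mice. From 800 to 1600 UMIs it was 0.345% to 0.794% and 0.479% to 0.556%, higher in GFP+ cells of 1 mouse, the i.v. female. From 1600 to 3200 UMIs, GFP+ cells were higher in all 4 mice without overlap (0.756% to 1.17% against 0.511% to 0.641%). At 3200 UMIs or more they were again higher in all 4 mice, but by little, at 1.16% to 1.43% against 1.12% to 1.32%. These deepest cells made up 27.9% to 52.1% of GFP+ cells and held 77.1% to 87.5% of their UMIs, whereas they made up 6.89% to 13.0% of GFP- cells and held 37.0% to 53.0%. The typical cell did not follow the sum: the median share over cells was 0.469% to 1.09% in GFP+ and 0.491% to 0.675% in GFP- libraries, and it was higher in GFP+ cells only in the i.v. female. Cells without a single member UMI were more frequent in GFP+ libraries, at 3.54% to 7.52% against 0.735% to 1.64%, although the median depth of the GFP+ library was higher in all 4 mice.

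**Figure D3:**
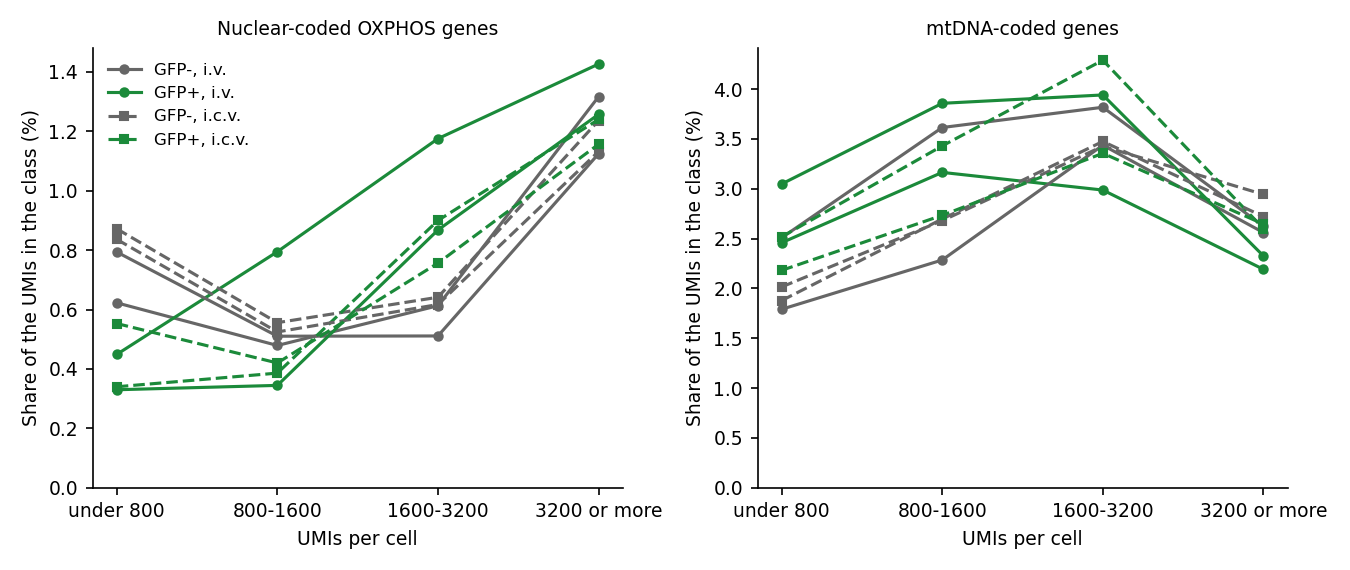
Share of UMIs on the nuclear-coded oxidative phosphorylation genes (left) and on the 13 mt- genes (right) in cells of 4 depth classes, for each treated library (green GFP+, gray GFP-, solid lines i.v., dashed lines i.c.v.). The nuclear-coded share was lower in GFP+ cells under 800 UMIs and higher from 1600 UMIs in 4 of 4 mice each, and the libraries came together at 3200 UMIs or more.

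Tests within depth classes gave few or no calls. Over cells with at least 3200 UMIs (a setting chosen after the data were seen), edgeR called 0 of 87 members in either direction, where 0.86% of all genes were called higher and 3.36% lower, with 19 at an unadjusted p under 0.05, 79 log2 differences above 0 and a median of 0.20. Cox7a2l had the smallest p there, with a log2 difference of 0.34 (standard error 0.10, adjusted p = 0.0897). Over cells with 800 to 1600 UMIs, 0 of 81 members were called (6.25% of all genes higher and 7.31% lower), with 4 at an unadjusted p under 0.05 and a median of -0.08. Those 4, Uqcrc2, Ndufv1, Ndufs3 and Cyc1, had log2 differences between -0.58 and -0.40. With every cell thinned to 500 UMIs before summing, 0 of 85 members were called higher (5.81% of all genes) and 1 lower (7.28%), Cox6a2, with a log2 difference of -1.33 (standard error 0.36, adjusted p = 0.0262). There 7 members had an unadjusted p under 0.05 and the median was 0.20. DESeq2 was not run on these classes.

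Other measures moved with the same libraries. Cytosolic ribosomal protein genes took 11.8% to 16.4% of UMIs in GFP+ and 7.89% to 10.8% in GFP- libraries, and Malat1, a nuclear RNA, took 3.42% to 4.04% and 4.92% to 7.13%, both without overlap. The share of cells with at least 3 markers of CNS-associated macrophages was higher, and that of microglia lower, in all GFP+ libraries, as given above. Leaving out the 0.452% to 2.56% of treated cells that carried at least 3 markers of another type gave 69 members called higher. Microglia, CNS-associated macrophages, monocytes and dividing cells did not count as another type. The part of cell depth and of macrophage markers in the difference between the sorts was not tested beyond these values.

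Among the members, the difference was larger for genes with short coding sequences. The median log2 difference was 0.74 over 36 members with at most 400 coding nucleotides (32 called), 0.55 over 32 members of 400 to 800 (25 called), 0.38 over 16 of 800 to 1600 (9 called) and 0.28 over 3 longer ones (2 called). Spearman's rho across the 87 members was -0.66 and Pearson's r -0.61, given as a description because genes of the same libraries are not independent. All other genes showed the same order more weakly, with medians of 0.47, 0.29, 0.05 and -0.15 in the 4 length classes and a rho of -0.36 over 10988 genes. Of these other genes, 43.4%, 32.1%, 15.6% and 7.60% were called higher in the 4 classes, so the share of calls also differed with length outside the pathway. Over all kept cells, the members' median lay above that of the other genes in every length class. Over cells with 800 to 1600 UMIs it did so only in the shortest class. The medians there were 0.05, -0.15, -0.15 and -0.13 for members and -0.04, -0.08, -0.03 and 0.09 for other genes. Over cells with at least 3200 UMIs the rho was -0.68 over members and -0.14 over other genes, and over cells with 800 to 1600 UMIs -0.43 and 0.15. The part of cell depth, and of the position of reads near the 3-prime end, in this order was not tested.

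**Figure D4:**
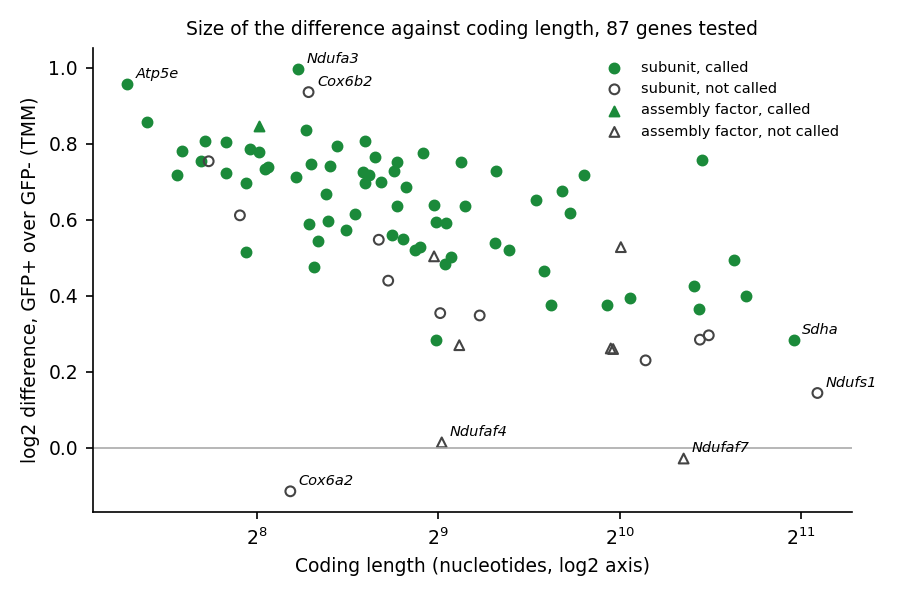
Log2 difference of GFP+ over GFP- (TMM, all kept cells) against coding length in nucleotides (log2 axis) for the 87 members tested. Circles are subunits, triangles are complex I assembly factors and filled symbols were called (edgeR, adjusted p under 0.05). Members of at most 400 nucleotides had a median of 0.74 and the 3 longest one of 0.28.

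The mt- genes code for subunits of the same complexes, and of the 13 only mt-Co1, the catalytic subunit of complex IV, was called between the sorts. It had 4245, 3895, 4346 and 4169 CPM in the GFP- and 4107, 4774, 4595 and 4733 CPM in the GFP+ libraries. The ranges overlapped, and the log2 difference was 0.41 (standard error 0.13, adjusted p = 0.0376). The call was lost with library totals (log2 difference 0.13, adjusted p = 0.379) and in other alternatives given below. The median over the 13 was 0.13, against 0.61 for the nuclear-coded members. By p, mt-Nd4 came next, with a log2 difference of 0.31 (standard error 0.13, adjusted p = 0.0978), and mt-Nd2 was lowest at -0.07 (standard error 0.13, adjusted p = 0.701). Within complex IV, mt-Co2 and mt-Co3 had log2 differences of 0.13 and 0.09. For complex III, mt-Cytb stood at 0.07, and for complex V, mt-Atp6 and mt-Atp8 stood at 0.16 and 0.53. Among the other complex I genes, mt-Nd1 had 0.07, mt-Nd3 0.08, mt-Nd4l 0.22, mt-Nd5 0.21 and mt-Nd6 -0.01, none of them called.

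The route comparison asked whether MLCs that entered the brain from blood and those placed in the ventricle differ. Within the i.v. mice 62 members were called higher in GFP+ cells (14.7% of all genes, median log2 difference 0.88), and within the i.c.v. mice 3 were (2.38%, with 6.31% of all genes lower, median 0.33, 52 of 89 members at an unadjusted p under 0.05). The 3 were Ndufa3 with a log2 difference of 0.64, Uqcr11 with 0.52 and Ndufv3, a subunit of the flavoprotein fraction, with 0.49. The difference between these effects was tested as an interaction, and 0 of 90 members passed (1.82% of all genes higher and 0.112% lower), with 51 at an unadjusted p under 0.05, a median of 0.58 and 9 called by DESeq2. When the sorts were paired within mice by the replicate block, 24 members passed, all with the larger sort difference in i.v. mice (4.84% of all genes). Cox7b led them with an interaction of 0.98 (standard error 0.14, adjusted p = 0.0153), followed by Cox7a2 (0.87), Ndufa6 (0.80), Cox5b (0.85) and Uqcrq (0.81), which are small subunits of complexes IV, I and III. By complex, 7 of the 24 were in complex IV, 6 in complex V, 6 in complex I and 5 in complex III. The i.v. female gave the deepest GFP+ library, and each route has 2 mice, so route, mouse and depth cannot be told apart. The paired fit was not repeated with libraries left out.

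Within GFP+ cells alone, 0 of 90 members were called between i.v. and i.c.v. mice (2.56% of all genes higher and 0.207% lower), with 42 at an unadjusted p under 0.05, a median log2 difference of 0.37 and 2 called by DESeq2. Cox7b, an accessory subunit of complex IV, had the smallest p, with 158, 120.4, 92.0 and 79.8 CPM. Both i.v. libraries were above both i.c.v. libraries, with a log2 difference of 0.81 (standard error 0.18, adjusted p = 0.0553). Within GFP- cells, 0 members were called (0% of all genes in either direction), with 11 at an unadjusted p under 0.05, a median of -0.24 and 0 called by DESeq2. Between female and male recipients within GFP- cells, 0 of 90 members were called (0% of all genes higher and 0.0319% lower, which were 4 genes), and DESeq2 called 0. Cox6a2 was the only member at an unadjusted p under 0.05, with 22.7, 8.12, 19.1 and 10.4 CPM in the GFP- libraries. Both females lay above both males, with a log2 difference of 1.21 (standard error 0.35, adjusted p = 0.9998).

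The treatment-naive libraries place these levels among other cells, with 1 library each and therefore no test. The members summed to 10676.5 CPM in microglia (95% exact Poisson interval 10474 to 10882, for counting error only), 16433 in blood cells (16278 to 16588), 19884.5 in the astrocyte sort (19759 to 20011) and 21504 in the neuron sort (21355 to 21654). Under the limit on mt- UMIs, the mt- genes followed the same order, at 31017, 53753, 60655 and 75079 CPM. The ratio of the sums then lay between 0.286 and 0.344. The limit on mt- UMIs removed 25.6% to 74.4% of barcodes with at least 200 genes in these libraries, against 5.88% to 15.4% in treated ones. With all deposited barcodes the members' sums were 9749, 12444, 15906 and 17182 CPM, in the same order. The mt- sums were then 97220, 128433, 111054 and 184676 CPM, with blood cells above the astrocyte sort. The ratios fell to 0.093 to 0.143, so the order of the mt- sums and the level of the ratio depended on the limit. Median depth ran from 425 UMIs per cell in microglia to 6937 in the neuron sort. Over cells with at least 3200 UMIs (42 cells in microglia) the sums were 13351, 16607, 21657 and 21453 CPM. There the astrocyte sort lay above the neuron sort, and microglia stayed lowest.

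A gene was counted as different between treatment-naive libraries at 2-fold or more, where the higher library reached 20 CPM. In the astrocyte sort 42 of 84 members were higher than in microglia (30.3% of all genes) and 1 was lower (22.8%), with a median ratio of 2.00. Of these 42, 27 were in complex I. Besides the isoforms described below, Ndufaf4, an assembly factor, was highest in ratio (134 against 23.3 CPM, 5.78-fold), followed by Ndufb6, an accessory subunit (146 against 36.4 CPM, 4.02-fold). The lower gene was Cox7a2l, at 121 CPM in the astrocyte sort and 297 CPM in microglia. In the neuron sort 43 of 81 members were higher (26.5% of all genes) and 0 lower (28.1%). There the largest ratios were those of the complex I genes Ndufs5 (342 against 86.0 CPM, 3.97-fold), Ndufs6 (3.94-fold), Ndufb9 (3.92-fold), Ndufs7 (3.62-fold) and Ndufa5 (3.55-fold). Cox7a2l was again the gene with the lowest ratio, at 187 CPM, and it had 369.8 CPM in blood cells. In blood cells 13 of 81 members were higher (14% of all genes) and 1 lower (19.2%). These included the Rieske iron-sulfur protein Uqcrfs1 (167 against 56.7 CPM, 2.95-fold), Atp5k (2.60-fold), Atp5e (707 against 288 CPM, 2.45-fold), Ndufs6 (2.37-fold) and Uqcrh (2.35-fold), and the lower gene was the assembly factor Ndufaf2. Treatment-naive microglia and the mean of the 4 GFP- libraries differed at 2-fold in 0 of 81 members (2.12% of all genes higher and 3.27% lower), with a median ratio of 1.20. Age, treatment, preparation and depth per cell differ between these libraries, and their parts in the 2-fold counts cannot be told apart.

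Several members have tissue isoforms, and in treated brain macrophages the widespread form was the abundant one in each pair. Cox4i1 stood at 485 to 702 CPM in treated libraries and its hypoxia- and lung-associated isoform Cox4i2 at 0 to 2.83 CPM. Likewise Cox7a2 stood at 105 to 207 CPM and its muscle isoform Cox7a1 at 0.307 to 2.54, Cox8a at 325 to 608 CPM and its muscle isoform Cox8b at 0 to 1.73, Cox6b1 at 158 to 317 CPM and its testis isoform Cox6b2 at 2.62 to 10.2, and Ndufa4 at 160 to 243 CPM and Ndufa4l2 at 0 to 2.83. The testis isoforms Cox7b2 and Cox8c were at 0 in all treated libraries apart from 1 UMI of Cox8c.

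**Figure D5:**
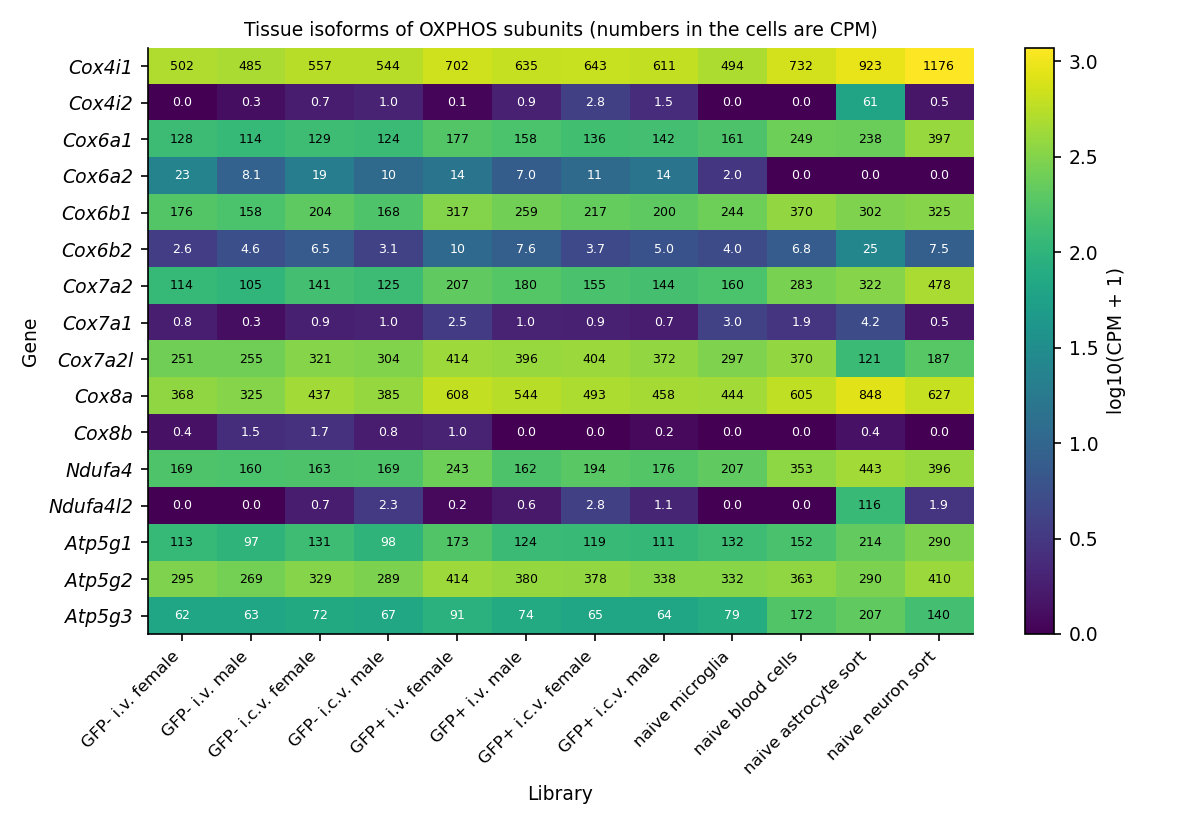
Level of the tissue isoforms in the 12 libraries, as log10(CPM + 1), with CPM printed in each cell. Widespread forms such as Cox4i1 and Cox8a were high in all libraries, Cox4i2 and Ndufa4l2 were high in the astrocyte sort only (61 and 116 CPM), and Cox6a2 was found in treated libraries and not in the neuron, astrocyte and blood libraries.

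In the astrocyte sort, 3 of the tissue isoforms passed the 2-fold limit against treatment-naive microglia, though still below their widespread forms. Cox6b2 had 24.98 against 4.05 CPM (6.17-fold). Cox4i2 and Ndufa4l2 had 60.6 and 116 CPM, beside 923 CPM of Cox4i1 and 443 CPM of Ndufa4, where treatment-naive microglia had 0 UMIs of either, so they were at least 19.9-fold and 38.0-fold higher against a floor of 3 counts per library. Cox4i2 was found in 101 of 1146 cells (8.81%, 95% exact interval 7.24% to 10.6%) and Ndufa4l2 in 97 (8.46%, 6.92% to 10.2%). In the neuron sort, which was deeper (median 6937 against 3395 UMIs per cell), Cox4i2 and Ndufa4l2 were found in 0.174% and 0.348% of cells. The same cells carried both: 74.3% (64.6% to 82.4%) of cells with Cox4i2 held Ndufa4l2, against 2.11% (1.32% to 3.17%) of the others. Genes known from pericytes, picked after the values had been seen, sat in the same cells, with Rgs5 in 76.2% against 2.87%, Kcnj8 in 73.3% against 1.72% and Higd1b in 75.2% against 1.24%. Cldn5, an endothelial gene, was found in 4.95% and 1.53%. The cells with Cox4i2 were not the deeper ones, with medians of 2895 and 3474 UMIs.

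Cox6a2, the heart and skeletal muscle isoform of Cox6a1, had 7.0 to 22.7 CPM in treated libraries, with a UMI in 0.944% to 2.72% of cells, and lay far below Cox6a1, which had 114 to 177 CPM. In the treatment-naive libraries a UMI was found in 2 of 1274 microglia (0.157%, 95% exact interval 0.0190% to 0.566%, median 425 UMIs per cell) and in 0 of 1146 cells of the astrocyte sort, 0 of 575 of the neuron sort and 0 of 341 blood cells, which allow shares of cells with a UMI of up to 0.262%, 0.522% and 0.880%. These limits concern detection and not expression, and the share that free RNA gives in cells without the gene was not measured in the treated libraries. A single cell held up to 26 UMIs of Cox6a2. Among cells with at least 3200 UMIs, those with Cox6a2 also carried genes known from activated, lipid-handling microglia more often, again picked after the values had been seen. Cst7 was found in 14.5% to 43.8% of cells with Cox6a2 and 6.21% to 11.8% of the others, higher in 8 of 8 libraries, and Lpl in 7.84% to 43.8% and 1.73% to 11.1%, also in 8 of 8. The cells with Cox6a2 were deeper within this class in every library, with medians of 7717.5 to 11464 against 6334 to 9579.5 UMIs, and the part of depth was not tested.

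Lists of genes that act beside the complexes gave fewer calls per gene tested than the subunits did, with the cytosolic ribosome as the exception. Of 39 tested assembly factors outside the symbol rule, 9 were called higher and 0 lower (median 0.26), against 16.6% and 15.9% of all genes, led by Cox14 (0.72), Uqcc2 (0.66) and the copper chaperone Cox17 (0.61). Of 24 electron carriers and nucleotide exchange genes, 7 were higher and 0 lower (median 0.32), with cytochrome c (Cycs) at 52 ± 5.2 CPM in GFP- and 72 ± 13 CPM in GFP+ libraries (SD, n = 4 each), a log2 difference of 0.76 (standard error 0.18, adjusted p = 0.0118). Ucp2, an uncoupling protein of the inner membrane, and Atpif1, the inhibitor of ATP synthase, had 0.71 and 0.66. The TCA cycle and pyruvate entry had 5 of 19 higher and 0 lower (median 0.19), with fumarase (Fh1) at 0.71 and the isocitrate dehydrogenase subunits Idh3b and Idh3a at 0.54 and 0.42. Protein import had 10 of 24 higher (median 0.31), with Tomm7 at 1.03, and the mitochondrial ribosome, which translates the mt- genes, 38 of 77 (median 0.43), with 0 lower in both. Cytosolic ribosomal protein genes had 82 of 84 higher (median 0.91). Except for the last list, these counts rest on the TMM scaling. With library totals they were 2 higher and 3 lower for the assembly factors, 2 and 2 for the electron carriers, 0 and 1 for the TCA cycle, 3 and 2 for import, 6 and 0 for the mitochondrial ribosome and 79 and 0 for the cytosolic ribosome. Over cells of at least 3200 UMIs, 0 genes of the first 5 of these lists and 2 of the cytosolic ribosome were called higher, and 0 were lower in all 6.

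Glycolysis and mitochondrial gene control had calls in both directions, as all genes did (16.6% higher and 15.9% lower). Of 20 glycolysis genes 4 were called higher and 4 lower (median 0.41), which became 0 and 4 with library totals (median 0.13). Slc2a5, a fructose transporter that marks microglia, had 221 ± 60.9 CPM in GFP- and 14.4 ± 9.67 CPM in GFP+ libraries (SD, n = 4 each), a log2 difference of -3.68 (standard error 0.40, adjusted p = 0.000619). Ldhb, a lactate dehydrogenase subunit, had -1.33 (standard error 0.27, adjusted p = 0.00708) and hexokinase 2 (Hk2) -0.77 (standard error 0.12, adjusted p = 0.00287). Of 19 genes of mitochondrial biogenesis and mtDNA expression, 1 was higher and 5 lower (median -0.07), and 0 and 9 with library totals. The higher gene, Slirp, and one of the lower genes, Lrpprc, code for partners in the same complex that holds mt- mRNAs, with log2 differences of 0.79 and -0.71. Pprc1, a coactivator of nuclear respiratory factors, had -0.65. Within cells of at least 3200 UMIs, 0 genes of the biogenesis list were called, and 0 glycolysis genes were called higher and 2 lower.

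Nuclear-coded subunits are known to share binding sites for NRF1, ETS factors such as GABP, and YY1 in their promoters. RefSeq promoters (GRCm38.p6, from 250 bases before to 50 after each start) were matched for 76 of the 93 symbols. The NRF1 core CGCANGCG was found on either strand in 36.8% of these genes, in 20.2% of the 8984 other tested genes with a promoter and in 9.22% of all 27025 genes. The ETS motif CCGGAAG was found in 23.7%, 21.2% and 9.93%, and the YY1 motif AAGATGGCG in 10.5%, 3.82% and 1.64%. These are letter matches and not shown to be sites, and matches can overlap, since CCGGAAG and AAGATGGCG may share AAG. For 4 complexes, the 120 bases before the start of the called member with the largest log2 difference that holds a match there (with at most 30 bases in an exon) are printed below, from the strand of the gene, with matches to CGCANGCG or CCGGAAG or their reverse complements in capitals, to show where the matches lie before the start. The windows are all on the minus strand, at chr4:123718187-123718306 for Ndufs5, chr10:80406822-80406941 for Uqcr11, chr5:115348959-115349078 for Cox6a1 and chr2:174464102-174464221 for Atp5e.
Ndufs5: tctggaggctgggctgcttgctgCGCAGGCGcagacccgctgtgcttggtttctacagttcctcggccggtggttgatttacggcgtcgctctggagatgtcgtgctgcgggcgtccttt
Uqcr11: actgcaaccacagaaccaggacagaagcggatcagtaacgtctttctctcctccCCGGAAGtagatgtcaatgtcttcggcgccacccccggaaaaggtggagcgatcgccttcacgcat
Cox6a1: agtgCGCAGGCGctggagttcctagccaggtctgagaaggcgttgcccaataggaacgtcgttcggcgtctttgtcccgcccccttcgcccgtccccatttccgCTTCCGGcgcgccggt
Atp5e: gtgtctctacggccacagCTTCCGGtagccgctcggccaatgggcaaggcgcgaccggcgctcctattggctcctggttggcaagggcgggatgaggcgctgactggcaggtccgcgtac
In these the match nearest to the start ended 89 bases before it in Ndufs5, 59 bases before it in Uqcr11, 9 bases before it in Cox6a1 and 95 bases before it in Atp5e. Ndufs5 had a log2 difference of 0.47, Uqcr11 0.86, Cox6a1 0.60 and Atp5e 0.96. Whether the matches have a part in these differences was not tested.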

How the data were processed

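Single cells from 12 libraries were measured by 3-prime droplet RNA-seq. Per the file headers, the authors made the deposited UMI counts per gene and barcode with Cell Ranger 3.1.0, and the labels name mm10. The barcode and gene lists are text and hold no values. Each treatment-naive library holds 2500 barcodes. Barcodes under 200 genes or over 10% mt- UMIs were dropped, doublets were not removed, and raw counts were summed per library. CPM divides by all kept UMIs. Groups came from the labels.

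The sorts (4 libraries against 4), the routes and recipient sexes (2 against 2) and the route by sort interaction were tested with edgeR 4.0.16 (R 4.3.3) on counts of all genes, with TMM, filterByExpr, the quasi-likelihood test and Benjamini-Hochberg adjustment. The fit of the sorts held no block. GFP+ and GFP- libraries with the same number came from the same animal per the labels, so they are paired, and the correlations of their deviations from the group means were 0.21, -0.28, -0.33 and 0.01. The blocked value is given where it changed a call. The p-values measure the spread between mice within the groups of a fit, or that of the sort difference between mice in the blocked fits. The route, sex and interaction contrasts took this spread from all 8 treated libraries. Treatment-naive libraries had no replicates and no test, and their intervals (exact Poisson or exact binomial, 95%) and zero limits (3 counts) cover counting error only.

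Named genes were, per complex, the 2 with the highest mean CPM in treated libraries, the 5 members with the largest called difference (or the smallest p) in each comparison, the isoform sets, the mt- genes, the 3 genes of each other list with the largest called difference, and members whose call changed where 5 or fewer did. Cox7a2l, Uqcrc1, Ndufs1, Atp5a1, Atp5b and the members listed as not called were named after their values were seen. The members, lists and tests were chosen with earlier results of these data known. Alternatives were DESeq2 1.42.0, other scalings, filters, covariates, cell limits and depth classes, and leaving out each library. The tests were run on simulated data before use. In each simulation 100 genes were raised 1.5-fold and another 100 raised 3-fold, drawn from the more abundant genes, with the rest left unchanged. Of 100 genes changed 1.5-fold, the sort test called 16%, and the route tests 5% within GFP+ and 9% within GFP-. The interaction and sex tests called 0% of such genes. At 3-fold the shares were 94%, 99%, 94%, 57% and 73% in the same order. Thus 0 members called between routes or sexes, or in the interaction, does not show equal levels. In the data the sort test called 16.6% of all genes higher and 15.9% lower, many more than the simulation changed. The simulated shares of the sort test therefore need not hold for the reported one. Coding lengths came from GENCODE vM21 (GRCm38) and promoters from RefSeq (GRCm38.p6).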

Additional observations from a re-analysis of the deposited data

Results flagged for a closer look

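In 98 groups of 4 libraries, the gap between the most extreme library and its nearest neighbour was divided by the whole range and compared with Dixon's 95% critical value for 4 libraries, which chance passes in about 1 in 20 groups. It was passed in 7 groups (7.14%), and in all 7 the library apart came from the i.v. female. In its GFP+ library, the summed complex I assembly factors stood at 183 CPM against 140 to 144 CPM in the others (gap 0.909), Sdhb at 112 CPM against 82.4 to 82.9 CPM (gap 0.986), Cox7a1 at 2.54 CPM against 0.734 to 1.01 CPM (gap 0.845) and mt-Atp8 at 101.0 CPM against 52.5 to 60.8 CPM (gap 0.82902). In its GFP- library, mt-Atp8 stood at 99.98 CPM against 40.8 to 46.6 CPM (gap 0.901), mt-Nd4l at 442 CPM against 191 to 210.1 CPM (gap 0.922) and mt-Nd5 at 677 CPM against 388 to 396 CPM (gap 0.972). The GFP+ library of this mouse was also the deepest, with 3499 UMIs per cell at the median. The part of depth in these values was not tested.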

How the results depend on the processing

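The count of members called higher (68) was 0 over cells with 800 to 1600 UMIs, 0 over cells with at least 3200 UMIs (chosen after seeing the data), 0 with cells thinned to 500 UMIs, 3 in i.c.v. mice alone and 38 with library totals, and 47 to 70 with 1 library left out, lowest without the GFP- library of the i.v. male. It was 60 without either library of the i.v. female, 64 with the replicate block and 74 with DESeq2. Thinning gave 1 member called lower. The mt- genes called higher (1) numbered 2 with DESeq2 and with at least 500 genes and at most 5% mt- UMIs. They numbered 0 to 3 with 1 library left out (3 without the GFP- library of the i.v. female). There were 0 with all barcodes, without the mt- limit, in both depth classes and in i.v. mice. There were also 0 with totals, no filter, sex as covariate and thinning. Setting TMM without mt- and Rp genes took the mt- genes out of the test and gave no value for them. Between routes within GFP+, members called (0) numbered 2 with DESeq2, 1 with no filter and 0 to 1 with 1 library left out (1 without the GFP+ library of the i.v. male). For the interaction (0), they numbered 9 with DESeq2, 4 with no filter and 24 with the replicate block.

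The log2 ratio of the members' sums (0.37) was -0.088 over cells of 800 to 1600 UMIs, 0.12 thinned and 0.079 over cells of at least 3200 UMIs. That of the mt- sums (-0.11) was -0.38 with all barcodes and -0.38 without the mt- limit, and turned to 0.066 with the stricter limits, 0.23 at 800 to 1600 UMIs and 0.11 thinned. That of the ratio (0.49) was -0.32 and 0.0056. With all barcodes, the stricter limits and 800 to 1600 UMIs, the sum was 17182, 20862 (20861.5) and 22694 CPM in the neuron sort, 9749, 11585 and 6990 CPM in treatment-naive microglia and 12444 (12443.5), 17706 and 12501 CPM in blood cells, and 15906 and 20204 CPM in the astrocyte sort, which had 0 cells in the class.

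Over cells of 800 to 1600 UMIs the sign turned for Ndufc2 (-0.18), Ndufaf7 (0.22), Sdhb (-0.25), Sdha (-0.21), Uqcrh (-0.12), Uqcrb (-0.025), Cox4i1 (-0.12), Atp5g2 (-0.19), Cox6a1 (-0.071), Cox7a2 (-0.15), Ndufa4 (-0.0032), Atp5g1 (-0.32), Atp5g3 (-0.25), Cox14 (-0.051), Uqcc2 (-0.095), Atpif1 (-0.037) and Tomm5 (-0.11). It also turned for Ndufaf7 in i.c.v. mice (0.033), with the stricter limits (0.025) and without the GFP- library of the i.v. female (0.036, the highest of -0.071 to 0.036 with 1 library left out), for Sdha with totals (-0.0019) and thinned (-0.021), for Idh3a thinned (-0.14), and for Cox6a2 without the GFP+ library of the i.v. male (0.04) or the GFP- library of the i.v. female (0.11) or i.c.v. female (0.072), within -0.34 to 0.11 with 1 library left out. Causes were not tested. Other values of named genes kept their call in 951 cases, lost it in 196 and gained it in 19. No replicates limit the treatment-naive libraries, and the depth of treatment-naive microglia was lowest.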

Other observations

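Splitting cells by their mt- share in place of depth gave the members' share of UMIs in 5 classes. At up to 2.5% mt- UMIs it was 0.948% to 1.36% in GFP+ and 0.775% to 0.931% in GFP- libraries, and from 2.5% to 5% it was 1.14% to 1.36% and 0.904% to 1.15%, higher in GFP+ cells of 4 of 4 mice in both. From 5% to 7.5% and from 7.5% to 10% it was higher in GFP+ cells of 2 of 4 mice, at 0.743% to 1.75% against 0.627% to 0.879% and 0.435% to 0.604% against 0.476% to 0.742%. Among barcodes over 10%, which were left out of the comparisons, it was 0.421% to 0.797% and 0.654% to 1.17%, higher in GFP+ cells of 0 of 4 mice. mt-Nd3 stood at 524 CPM in treatment-naive microglia and at 187 to 364 CPM in the GFP- libraries. mt-Nd4l stood at 124 CPM in treatment-naive microglia, at 442 CPM in GFP- cells of the i.v. female and at 191 to 210.1 CPM in the other 3, and mt-Nd5 at 209.5, 677 and 388 to 396 CPM.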
